A study of Mus musculus with 4 samples.

Results

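Podocytes are the epithelial cells that wrap the capillaries of the glomerulus, the filter of the kidney. Their interlocking foot processes are joined by the slit diaphragm, a junction built around nephrin, and are held in shape by an actin cytoskeleton. The 8 podocyte genes described here are Wt1, Tcf21, Nphs1, Magi2, Podxl, Synpo, Plce1 and Cdkn1c. They were followed in whole-kidney RNA of mice taken 2 weeks after bile duct ligation (BDL), which stops bile from leaving the liver, or after a sham operation. All non-control probes whose RefSeq accession belongs to 1 of these genes were taken, with no measured value used in the choice, which gave 9 of the 55681 probes of the array and 8 of the 20656 gene symbols that could be matched. There was 1 probe each for 7 genes and there were 2 for Synpo. All 9 were well above background on each of the 4 arrays.

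The study has 2 groups, sham and BDL, each of 2 arrays that the design text calls biological replicates, with 1 kidney RNA sample per 1-colour array. Both groups share the tissue and the time point and differ by the operation. Strain, sex and age are not given in the sources used here. A level is the log2 processed signal minus the 75th percentile of log2 signals on that array, and a difference is the BDL mean minus the sham mean of such levels. In whole-kidney RNA, a change in the number of podocytes and a change in the RNA made per podocyte cannot be told apart.

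The share of spots well above background ran from 57.7% to 63.1% over the arrays. Across the 32280 retained probes the arrays correlated pairwise between 0.973 and 0.985 (Pearson's r across probes, which are not independent replicates). Sham replicate 2 correlated slightly more with BDL replicate 1 (0.978392) and clearly more with BDL replicate 2 (0.985) than with sham replicate 1 (0.977854). BDL replicate 1 stood apart in urothelial genes, which line the renal pelvis and bladder. The summed linear level of the 6 urothelial genes listed was 57.8 on that array, against 1.26 in BDL replicate 2 and 2.69 and 8.06 in sham (each signal divided by the 75th percentile of its array).

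The question for these genes was whether podocyte transcripts differ between BDL and sham kidneys. Of the 9 probes, 8 had a higher mean in BDL and 1 a lower mean, where 49.9% of all retained probes had a higher mean. The 2 BDL values lay above both sham values for 6 probes of 6 genes, namely Wt1, Nphs1, Podxl, Cdkn1c, Plce1 and the brighter Synpo probe, against 18.2% of all retained probes. The median difference of the 9 probes was 0.58, or 1.50-fold, against a median of -0.00034 over all retained probes. None of the 9 passed an adjusted p of 0.05 in limma with Benjamini-Hochberg adjustment over all 32280 probes, where 0% of probes passed, with a smallest adjusted p of 0.162. At an unadjusted p under 0.05 stood 5 of the 9 probes, all higher in BDL, where 2.71% of all probes were called in that direction. The genes were proposed with earlier results of these arrays known, so these counts are descriptions and no independent evidence of a direction.

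**Figure D1:**
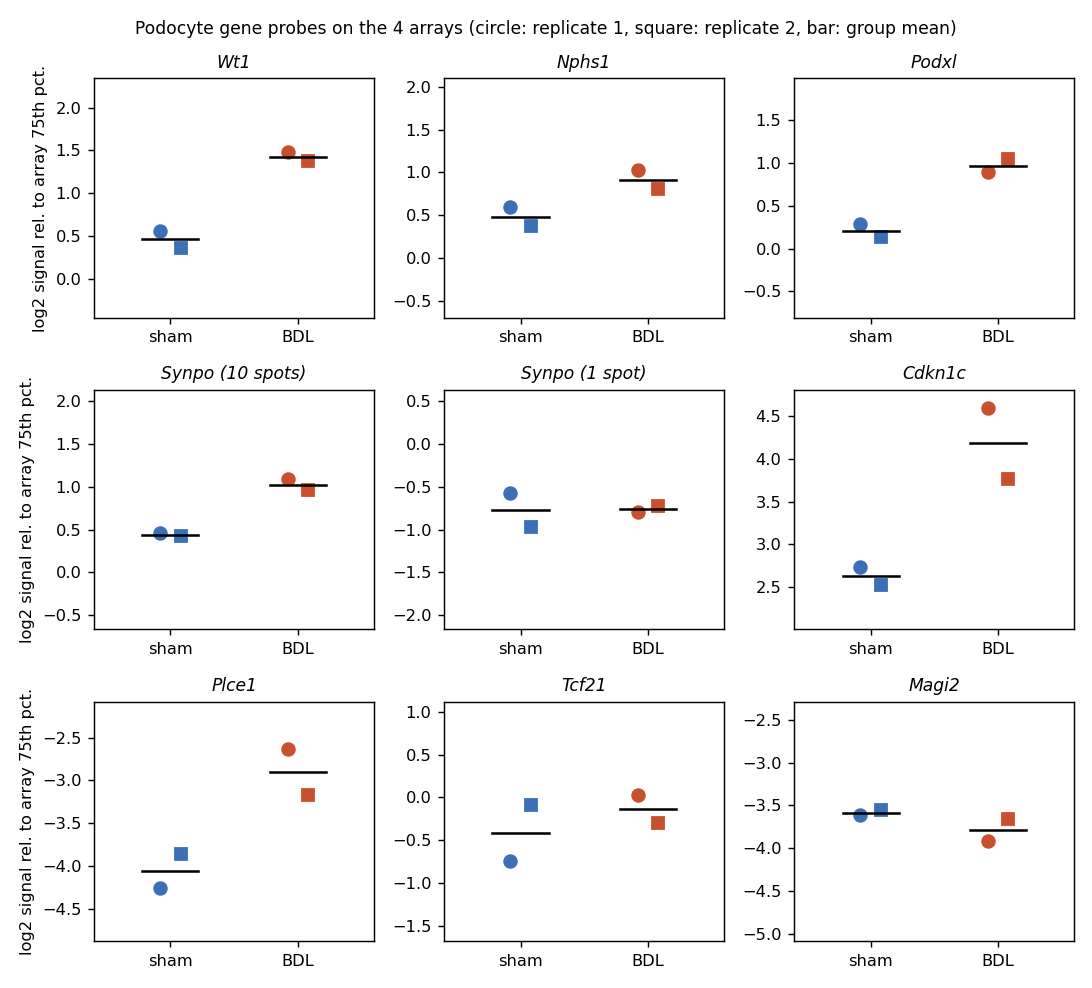
Log2 level as defined above (y axis, log2 signal minus the array's own 75th percentile, with the same span in each panel) for the 9 probes in sham and BDL kidneys. Circles are replicate 1, squares replicate 2 and bars group means, and the groups are separate for Wt1, Nphs1, Podxl, Cdkn1c, Plce1 and the Synpo probe printed in 10 spots, while Tcf21 and the Synpo probe with 1 spot overlap and Magi2 is slightly lower in BDL.

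Wt1 encodes the zinc finger transcription factor that maintains the podocyte programme and is also made by mesothelial cells. Its probe gave 0.56 and 0.36 in sham and 1.48 and 1.37 in BDL kidneys. Both BDL values were high, and the nearest values of the groups were 0.81 apart, while the arrays of each group lay within 0.20 (sham) and 0.11 (BDL) of each other. The group means were 0.46 ± 0.14 (sham) and 1.43 ± 0.075 (BDL, SD, n = 2). The difference of 0.97 (SE 0.20) is 1.95-fold, with a 95% interval from 1.35-fold to 2.84-fold, and a limma adjusted p of 0.775. Of all retained probes, 2.16% had a higher difference. The Wt1 difference ran from 0.87 to 1.07 when 1 array at a time was left out.

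Tcf21, a basic helix-loop-helix factor of podocytes that is also made by kidney stromal cells, had no separation of the groups. Its probe gave -0.75 and -0.09 in sham and 0.03 and -0.30 in BDL. Sham replicate 1 alone was low, and sham replicate 2 lay between the BDL arrays. It differed by 0.28 (SE 0.31, limma adjusted p = 0.904), with an interval from -0.53 to 1.09. Without sham replicate 1 it was -0.045 and without sham replicate 2 it was 0.61, so the sign rests on sham replicate 1.

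Nphs1 encodes nephrin, the adhesion protein that bridges neighbouring foot processes at the slit diaphragm. It gave 0.59 and 0.37 in sham and 1.02 and 0.81 in BDL. The groups did not overlap, but the nearest values were only 0.22 apart, about as much as the arrays of each group differed (0.22 in sham and 0.21 in BDL). The difference was 0.43 (SE 0.22), or 1.35-fold, and its interval from 0.912-fold to 2.00-fold includes no change (limma adjusted p = 0.867).

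Magi2, a membrane-associated scaffold that binds nephrin, was the only gene of the 8 with a lower mean in BDL. It gave -3.61 and -3.56 in sham and -3.92 and -3.65 in BDL, a non-overlap in the lower direction that 18.5% of all retained probes share. Its separation was 0.04, smaller than the 0.26 between the BDL arrays. The probe was dim, with processed signals between 49.1 and 75.03 units. It differed by -0.20 (SE 0.21, limma adjusted p = 0.902), with an interval from -0.75 to 0.35, and it was -0.07 without BDL replicate 1 and -0.33 without BDL replicate 2.

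The 250 bases before the annotated start are printed for Nphs1, Plce1 and Magi2 (RefSeq, build GRCm38.p6, 5′ to 3′). Nphs1 and Plce1 had both BDL values above both sham values, and Magi2 had a lower BDL mean, with none past the threshold. Capitals mark matches, on either strand, to CANNTG (the E-box bound by basic helix-loop-helix factors), GCGNGGGNG (the GC-rich type bound by WT1 and EGR factors), TCCTCC or TAATTA. Windows of Nphs1, Plce1, Tcf21 and Magi2 were matched by symbol, with 2 windows for Magi2, of which the first is shown. Windows of Wt1, Podxl and Cdkn1c were not among the sequences available, and Synpo was left out. The windows therefore do not cover all the podocyte genes described here.
Nphs1, chr7:30459808-30460057, plus strand: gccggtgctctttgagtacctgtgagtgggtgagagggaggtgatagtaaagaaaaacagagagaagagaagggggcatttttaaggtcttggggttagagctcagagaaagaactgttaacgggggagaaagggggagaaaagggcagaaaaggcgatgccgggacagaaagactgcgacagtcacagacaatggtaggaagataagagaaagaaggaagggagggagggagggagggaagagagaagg
Plce1, chr19:38523947-38524196, plus strand: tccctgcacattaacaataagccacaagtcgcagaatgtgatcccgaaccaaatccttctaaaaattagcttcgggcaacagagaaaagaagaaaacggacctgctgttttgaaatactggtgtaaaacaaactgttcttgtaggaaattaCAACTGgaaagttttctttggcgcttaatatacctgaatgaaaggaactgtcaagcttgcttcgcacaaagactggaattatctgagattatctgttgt
Magi2, chr5:19226796-19227045, plus strand: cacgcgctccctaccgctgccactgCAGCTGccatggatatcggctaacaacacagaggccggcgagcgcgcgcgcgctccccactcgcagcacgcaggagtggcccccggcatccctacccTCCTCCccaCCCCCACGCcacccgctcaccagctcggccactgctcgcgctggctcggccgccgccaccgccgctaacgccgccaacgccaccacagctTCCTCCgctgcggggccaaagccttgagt
The Nphs1 window held 0 matches to any of the 4 motifs, as did the Tcf21 window. The Plce1 window held 1 CANNTG. The Magi2 window held 1 CANNTG, 1 GCGNGGGNG and 2 TCCTCC, none overlapping another. The second Magi2 window held 1 CANNTG and 1 TAATTA. Of 32851 windows of the same length, 66.2% held CANNTG, 10.5% GCGNGGGNG, 29.2% TCCTCC and 4.84% TAATTA. The matches describe these windows only.

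Podxl encodes podocalyxin, the charged sialomucin that coats foot processes and keeps them apart, and is also made by endothelial cells. It gave 0.29 and 0.13 in sham and 0.90 and 1.04 in BDL. Both BDL arrays were high by similar amounts, with 0.61 between the nearest values of the groups. The difference was 0.76 (SE 0.20), or 1.69-fold with an interval from 1.17-fold to 2.45-fold (limma adjusted p = 0.828). The Podxl difference was 0.83 without BDL replicate 1 and 0.69 without BDL replicate 2.

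Synpo encodes synaptopodin, an actin-associated protein of foot processes and of dendritic spines. Its 2 probes, annotated to different transcripts, disagreed. The probe for NM_177340 was printed in 10 spots per array and gave spot averages of 0.46 and 0.42 in sham and 1.09 and 0.96 in BDL. Its spots varied within an array by an SD of 0.04 to 0.12, and in sham replicate 1 only 8 of the 10 spots were free of an outlier flag. The highest unflagged spot on a sham array was 0.53 and the lowest on a BDL array 0.79. Spots of an array repeat 1 RNA sample, so they do not measure variation between kidneys. The difference was 0.58 (SE 0.19), or 1.50-fold with an interval from 1.05-fold to 2.14-fold (limma adjusted p = 0.864).

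The probe for NM_001109975, with 1 spot per array, gave -0.57 and -0.97 in sham and -0.80 and -0.72 in BDL. Here the BDL values lay between the sham values. This probe differed by 0.01 (SE 0.23, limma adjusted p = 0.994), with an interval from 0.661-fold to 1.54-fold, which holds the 1.50-fold of the other probe. It was -0.19 with no sham replicate 2 and 0.21 with no sham replicate 1. Within an array, where scaling cancels, the first Synpo probe stood above the second by 1.04 and 1.39 in sham and by 1.88 and 1.68 in BDL, a mean shift of 0.57 between the groups without overlap. With 2 arrays in each group the smallest exact two-sided permutation p is 0.333, and no other test of this shift was run. With both probes averaged the Synpo difference was 0.30.

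Plce1 encodes phospholipase C epsilon, a signalling enzyme of podocytes in which loss-of-function mutations cause nephrotic syndrome. It gave -4.26 and -3.86 in sham and -2.63 and -3.17 in BDL. The groups lay 0.69 apart at their nearest values, and BDL replicate 1 was the higher BDL array. The difference was 1.16 (SE 0.29), or 2.23-fold with an interval from 1.31-fold to 3.80-fold (limma adjusted p = 0.813). The probe was dim, with 37.2 and 58.6 signal units in sham and 120 and 105 in BDL, and the difference was 0.63 under normexp background correction (offset of 50) with quantile normalization.

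Cdkn1c, an imprinted gene, encodes the cyclin-dependent kinase inhibitor p57, which marks podocytes that have left the cell cycle. Its difference was the largest of the 9 probes. It gave 2.73 and 2.52 in sham and 4.60 and 3.77 in BDL. Every BDL value was at least 1.04 above every sham value, but the BDL arrays were 0.83 apart, with BDL replicate 1 the higher. The difference was 1.56 (SE 0.34), or 2.94-fold with an interval from 1.58-fold to 5.47-fold (limma adjusted p = 0.794). Of all retained probes, 0.651% had a higher difference. Without BDL replicate 1 the Cdkn1c difference was 1.14, and without BDL replicate 2 it was 1.97.

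The probes were also compared with one another. Set against Nphs1 within each array, which removes any scaling between arrays, Cdkn1c shifted by 1.43 and 0.81 on the BDL arrays, Plce1 by 0.89 and 0.56, and Wt1 by 0.48 and 0.59 (log2, relative to the sham mean of the same ratio). Podxl shifted by 0.14 and 0.50 and the 10-spot Synpo probe by 0.10 and 0.19. Magi2 shifted by -0.87 and -0.40, the 1-spot Synpo probe by -0.57 and -0.28, and Tcf21 by -0.09 and -0.21. On the sham arrays the same ratios lay within 0.01 of their mean for Cdkn1c and Wt1, within 0.03 for Podxl, within 0.09 for each Synpo probe, within 0.14 for Magi2, within 0.31 for Plce1 and within 0.44 for Tcf21. The shifts of Cdkn1c, Wt1, Podxl, Plce1 and that Synpo probe thus exceeded the sham spread upward on both BDL arrays, by little for Synpo, those of Magi2 and the 1-spot Synpo probe exceeded it downward, and that of Tcf21 lay inside it. The sham arrays differed by 0.20 for Wt1, 0.21 for Cdkn1c and 0.22 for Nphs1, in the same direction. These gaps nearly cancel in the ratios of Wt1 and Cdkn1c, so their small sham spread is a weak yardstick. How many of all retained probes shift beyond the sham spread against Nphs1 was not counted, so these shifts have no background share. These ratios were not tested.

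**Figure D2:**
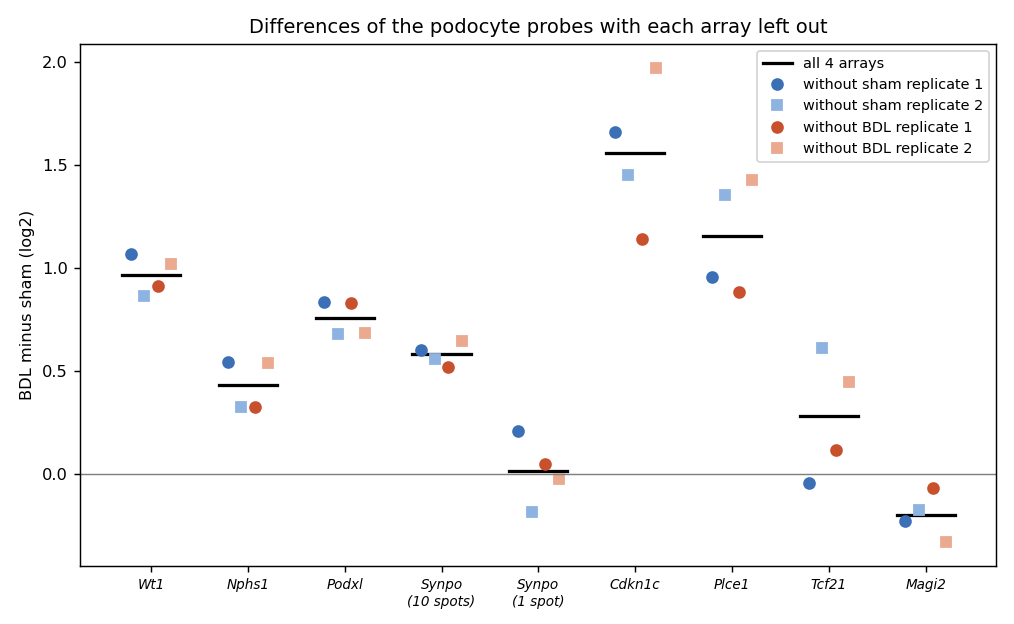
BDL minus sham (y axis, log2) for the 9 probes with all 4 arrays (black bar) and with each array left out (blue for a sham array, orange for a BDL array). Wt1, Nphs1, Podxl, Plce1, Cdkn1c and the 10-spot Synpo probe stay above 0 in each case, the 1-spot Synpo probe and Tcf21 cross 0, and Magi2 stays below 0. A probe whose groups do not overlap cannot cross 0 here.

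Other podocyte genes were read from 4 lists at the brightest retained probe of each gene, in a fit over 24043 features, 48.6% of which had a higher mean in BDL. Of 47 listed names 42 were measured. The mean was higher in BDL for 31 and lower for 11, with a median of 0.18 (0.27 without sham replicate 2) against -0.01 over all features. Among the 42, 17 had both BDL values above both sham values, against 17.4% of all features, and 0 had both below, against 19.2%. None passed the threshold in limma, where 0% of features passed, and at an unadjusted p under 0.05 stood 7 higher (2.59% of all features) and 0 lower (3.04% of all features). The 4 lists hold many genes that other kidney cells make as well.

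The slit diaphragm list had 6 of 9 measured members higher, 0 past the threshold, with a median of 0.02 that was -0.06 with no sham replicate 2 and 0.09 with no BDL replicate 2. Crb2, a polarity protein needed for the slit diaphragm, was 1.91-fold higher (0.93, SE 0.20, limma adjusted p = 0.759), with -1.26 and -1.30 in sham and -0.23 and -0.48 in BDL. Tjp1, which encodes the junction protein ZO-1 of many epithelia, differed by 0.52 (SE 0.27), but 0.24 with no sham replicate 1 and 0.80 with no sham replicate 2. Kirrel, which encodes a nephrin-like protein of the junction, differed by 0.27 (SE 0.24), but 0.043 and 0.49 when the same arrays were left out in turn. Adaptor genes shared with other cells stood close to 0, with Nck1 at 0.02, Nck2 at 0.02, Fyn at -0.10 and Cd2ap at -0.16.

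Genes of podocyte surface and secreted proteins had 12 of 15 members higher, 0 past the threshold, and a median of 0.28 (0.45 without sham replicate 1). Of the 15, 9 were separate and higher, against the 17.4% of all features. Sema3g, a semaphorin of podocytes and endothelium, gave -1.29 and -1.24 in sham and -0.27 and -0.43 in BDL, or 1.88-fold higher (0.91, SE 0.19, limma adjusted p = 0.728). Robo2, the SLIT receptor that signals at the foot process, was 1.84-fold higher (0.88, SE 0.19). Over the mean of its retained probes the Robo2 difference was 0.72 (SE 0.37). Pdpn, which encodes podoplanin, was 1.62-fold higher (0.69, SE 0.19). Pla2r1, Mme and Dach1 stood at -0.11, -0.08 and -0.01.

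Podocyte transcription factors had 3 of 5 members higher, 0 past the threshold, and a median of 0.32 that was 0.13 without sham replicate 1 and 0.51 without sham replicate 2. Foxd1, a forkhead factor of stromal progenitors and podocytes, was 1.77-fold higher (0.82, SE 0.19, limma adjusted p = 0.760) on a dim probe, and by 0.33 under normexp with quantile normalization. Zhx2, also dim, differed by 0.46 (SE 0.24), by 0.15 under normexp with quantile normalization and by 0.30 without BDL replicate 2. Foxc2 differed by 0.32 (SE 0.22), but 0.13 with no sham replicate 1 and 0.51 with no sham replicate 2. Foxd1, Zhx2 and Foxc2 were each separate between the groups and higher in BDL, as were 17.4% of all features. Lmx1b, a regulator of podocyte and matrix genes, stood at -0.05, and Foxc1, the other lower member, at -0.39 (SE 0.49). The actin cytoskeleton list had 10 of 13 members higher, 0 past the threshold, with a median of 0.13 that was -0.01 without sham replicate 1 and 0.06 without sham replicate 2. Ddn, the gene of dendrin, a slit diaphragm-associated protein, differed by 0.48 (SE 0.21), and its interval from 0.954-fold to 2.03-fold includes no change. Inf2 differed by 0.30 (SE 0.31), but -0.057 with no sham replicate 1 and 0.65 with no sham replicate 2. Kank1 differed by 0.20 (SE 0.22), by 0.35 without sham replicate 1, 0.048 without sham replicate 2 and 0.12 without BDL replicate 2. Actn4, the widely made actin crosslinker, stood at 0.13. The lower members of this list were Kank4 at -0.15, Myo1e at -0.14 and Cttn at -0.13.

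**Figure D3:**
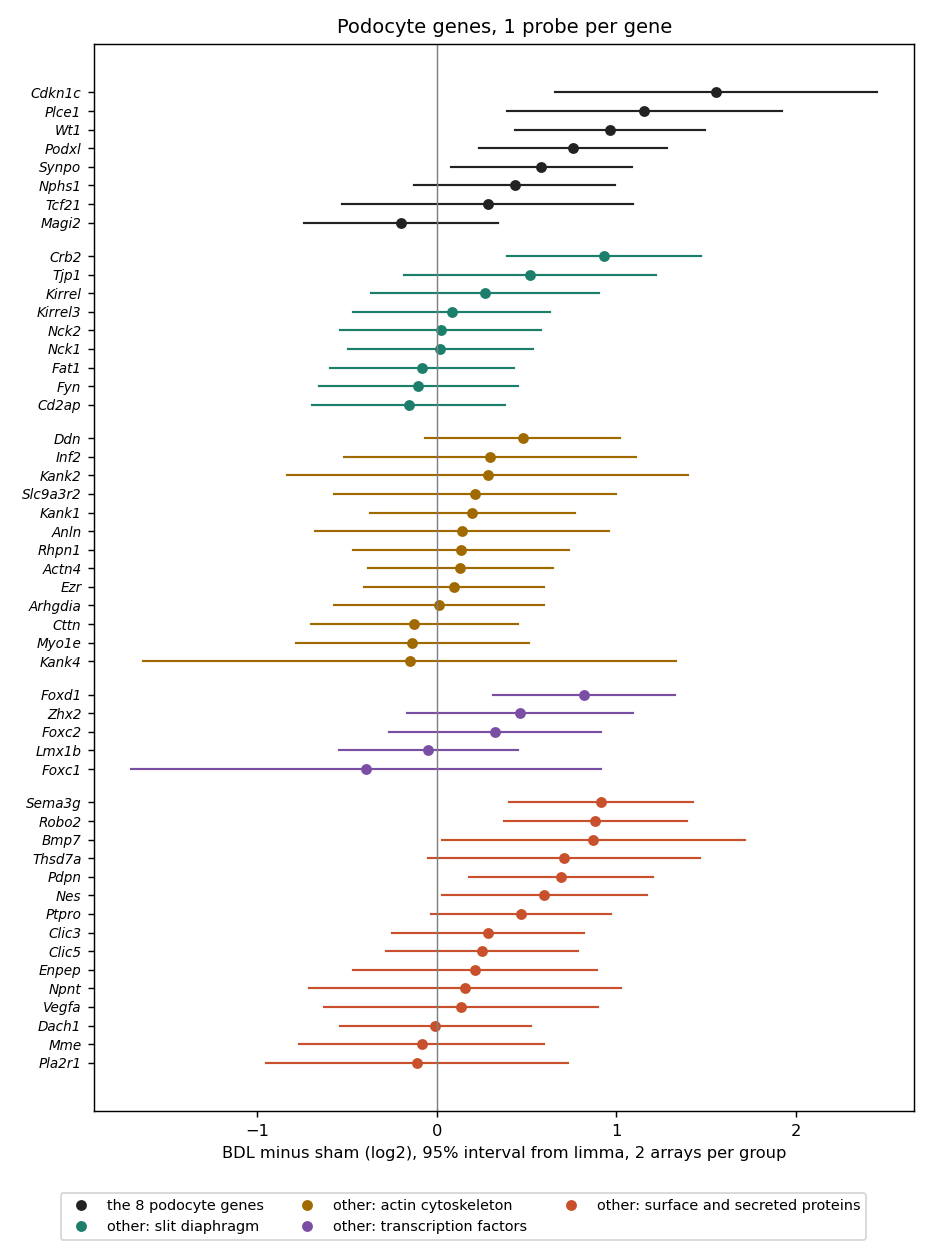
BDL minus sham (x axis, log2) with the 95% interval from limma for the 8 podocyte genes and the 42 other measured podocyte genes, 1 probe per gene, coloured by role. The points of Cdkn1c, Plce1, Wt1, Crb2, Sema3g and Robo2 lie between 0.88 and 1.56, while the cytoskeletal genes lie between -0.15 and 0.48.

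Genes of the glomerular basement membrane and its receptors, which podocytes make together with endothelial cells and tubules, had 6 of 11 members higher and a median of 0.08, but -0.02 with no sham replicate 1 and 0.16 with no BDL replicate 1. Col4a5, a collagen IV chain, differed by -0.46 (SE 0.26), and its interval from 0.452-fold to 1.17-fold includes no change. The Col4a5 difference was -0.70 with no BDL replicate 2 and -0.22 with no BDL replicate 1. Cd151, a tetraspanin partner of integrins, differed by -0.29 (SE 0.21), but -0.43 with no sham replicate 2 and -0.14 with no sham replicate 1. Agrn differed by 0.31 (SE 0.22), and by 0.16 without BDL replicate 1. Values for the other cells of the glomerulus stood as follows. Endothelial genes were higher in 9 of 10 with a median of 0.22, which was -0.02 without sham replicate 1 and 0.46 without sham replicate 2. Plat, the tissue plasminogen activator, was 1.85-fold higher (0.89, SE 0.20), Flt1 differed by 0.37 (SE 0.20) and Kdr by -0.31 (SE 0.21), which was -0.16 without sham replicate 1 and -0.055 over the mean of its retained probes. Mesangial and juxtaglomerular genes were higher in 6 of 10 with a median of 0.06, but -0.27 with no sham replicate 1 and 0.39 with no sham replicate 2. Parietal epithelial genes were higher in 0 of 4 with a median of -0.05, and 0.03 without sham replicate 2.

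Markers of cells that could share these transcripts or change the cortical share of a sample were read beside them. Proximal tubule genes were higher in 4 of 11 (median -0.03, but -0.19 with no sham replicate 2 and 0.02 with no sham replicate 1), with summed levels from 1826 to 2180 in sham and from 1795 to 1886 in BDL. Thick ascending limb genes were higher in 0 of 5 (median -0.15, -0.60 when sham replicate 1 was left out and 0.18 when sham replicate 2 was), with summed levels of 279 and 512 in sham and 422 and 276 in BDL. Genes of the inner medulla and collecting duct were higher in 5 of 7 (median 0.02, but -0.27 with no sham replicate 1 and 0.30 with no sham replicate 2), with 47.5 and 114 in sham and 57.6 and 64.8 in BDL. Interstitial fibroblast genes were higher in 4 of 7 (median 0.11, but -0.09 with no BDL replicate 2 and 0.23 with no sham replicate 2), with 26.4 and 25.5 in sham and 38.6 and 27.5 in BDL.

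Mesothelial genes, which bear on Wt1, were higher in 2 of 3 measured members of 6, with summed levels of 11.4 and 11.7 in sham and 16.5 and 6.64 in BDL. Gpm6a, which gave most of the summed sham level, was separate and lower in BDL, with 3.44 and 3.33 in sham and 2.61 and 2.64 in BDL (-0.76, SE 0.19). Krt19 gave -1.26 and 0.39 in sham and 3.29 and -1.55 in BDL. Their defining member Msln gave -3.21 and -1.66 in sham and -0.76 and -3.71 in BDL, while Upk3b and Lrrn4 were not retained. BDL replicate 2 had the lowest summed level of both the mesothelial and the urothelial list. Urothelial genes were higher in 6 of 6 (median 0.58, but -2.53 with no BDL replicate 1 and 3.66 with no BDL replicate 2). The summed linear level of the 8 podocyte genes was 12.9 and 11.9 in sham and 34.3 and 23.0 in BDL. Cdkn1c gave the largest part of it on each array, and it also had the largest difference of these genes. The part of these cell types in the podocyte values was not tested.

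**Figure D4:**
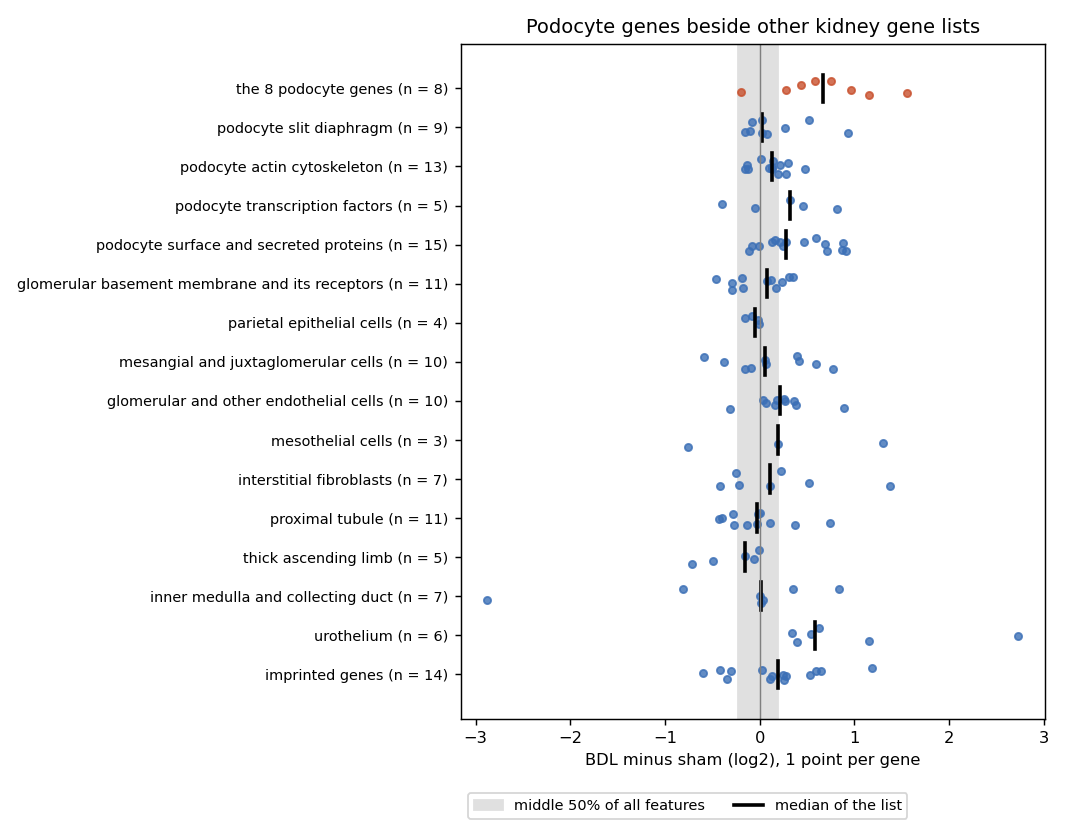
BDL minus sham (x axis, log2) for each measured gene of the 8 podocyte genes (orange) and of the other lists (blue), with the median of each list as a black bar and the middle 50% of all 24043 features in grey. The median of the 8 genes is 0.67, above those of the other lists, of which the urothelial median of 0.58 rests on BDL replicate 1.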

How the data were processed

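Per the labels' protocols, Cy3-labelled RNA of 1 kidney sample was put on each array. The authors read spots with Agilent Feature Extraction 11.0.1.1, and its processed signal, a linear intensity, has had background and a spatial trend removed and no scaling across arrays, per the file headers. Other deposited columns used are flags and the raw median intensities of spot and background. Scaling subtracted the 75th percentile of the log2 signal of each array. Control and outlier-flagged spots were left out (0 spots were saturated), spots of a probe were averaged, and 32280 of 55668 probes were retained because both arrays of sham, of BDL or of each were well above background. Names came from RefSeq accessions (GRCm38.p6 table, 27229 probes named, while other probes, including that of H19, kept the files' name). limma 3.58.1 in R 4.3.3 (lmFit, eBayes) compared the groups, with Benjamini-Hochberg adjustment over all retained probes for the 9 probes and over 24043 features, at the brightest probe of a gene, for the lists. The fit was tested on simulated data with planted changes larger than any difference of the 9 probes. That run therefore does not cover differences of their size. The authors' deposited value table is a linear intensity equal to the processed signal over a constant for each array (709 and 844 in sham, 739 and 940 in BDL, column medians 0.328, 0.339, 0.329 and 0.330). It is not centred per gene, and what the constants were set on stays unknown. The files hold no mean spot signal, so normexp used the median. All 4 arrays share 1 slide and scan, and 2 arrays per group limit the precision. The genes and lists were chosen with earlier results of these data known. The genes named are the 9 probes' genes and, from the other podocyte, basement membrane and endothelial lists, the 3 of smallest unadjusted p; others were chosen after their values were seen. Results for 2 further genes of the podocyte lists are not reported here, and no list count includes them. Alternatives changed scaling, background, filter, variance model, probe summary, the arrays used and the replicate block.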

Additional observations from a re-analysis of the deposited data

How the results depend on the processing

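With 2 arrays per group, 0 probes passed the threshold in the main analysis or in any of its 15 alternatives, with 1823 probes at an unadjusted p under 0.05 in the main analysis. Among the 9 podocyte probes, Wt1, Nphs1, Podxl, Plce1, Cdkn1c, Magi2 and the 10-spot Synpo probe kept their direction in every alternative. The groups did not overlap for these probes, so leaving out 1 array could not turn their sign. Changes of filter, variance model or replicate block left the differences themselves unchanged. Their kept direction was thus largely fixed in advance. With 1 array left out, Tcf21 ran from -0.045 (no sham replicate 1) to 0.61, the 1-spot Synpo probe from -0.19 (no sham replicate 2), with -0.02 for no BDL replicate 2, to 0.21, and Inf2 from -0.057 (no sham replicate 1) to 0.65, so that these 3 turned. The cause of these turns was not tested. The median of the 42 other podocyte genes, 0.18 in the main analysis, lay between 0.14 (no BDL replicate 2) and 0.27 (no sham replicate 2) with 1 array left out. The authors' deposited table holds 8 of the 9 podocyte probes (not that of Tcf21) and gave differences from -0.20 (Magi2) to 1.56 (Cdkn1c), as in the main analysis. Arrays with the same replicate number hardly deviated together (r = 0.07 over 32280 probes). This r cannot tell whether the kidneys of the same number were paired. The replicate block gave 0 calls, and the smallest adjusted p of the 9 probes was 0.642 with it against 0.775 without.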

Other observations

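Among 15014 other genes with a symbol, the 5 whose profile over the 4 arrays was nearest to the mean profile of the 8 podocyte genes were Pdpn, Haus7, Gtf2ird2, Abca8a and Fdft1. Likeness was the root mean square distance between centred log2 values, 0.02 for Pdpn, 0.02 for Haus7, 0.02 for Gtf2ird2, 0.03 for Abca8a and 0.04 for Fdft1. Pdpn is a podocyte gene of the lists and Fdft1 encodes squalene synthase of cholesterol synthesis. The 4 arrays give few points for such a measure. The members themselves were farther from their mean, from 0.07 for Synpo to 0.49 for Cdkn1c.

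Genes next to the podocyte genes in the RefSeq order were read as well. Only the neighbours of Nphs1 and Cdkn1c are given here with Wt1os, chosen after the values were seen, and those of the other podocyte genes are left out. Kirrel2, which lies beside Nphs1 on chromosome 7 and encodes a nephrin-like protein, had 2 probes and was not retained, being well above background on 1 array for each probe. Prodh2, on the other side of Nphs1, gave 3.07 and 3.32 in sham and 3.98 and 3.78 in BDL (0.68, SE 0.21, limma adjusted p = 0.861). Slc22a18, imprinted and next to Cdkn1c on chromosome 7, gave 8.06 and 7.70 in sham and 7.67 and 7.49 in BDL (-0.30, SE 0.23), and Kcnq1ot1, the noncoding RNA on the other side, 0.25 (SE 0.52). Of 14 measured imprinted genes, 10 had a higher mean in BDL, with a median of 0.19 that was -0.01 with no sham replicate 1 and 0.44 with no sham replicate 2. The highest was Mest at 2.28-fold (1.19, SE 0.43), followed by Grb10 at 1.57-fold and H19 at 1.51-fold, each separate between the groups and short of the threshold (limma adjusted p = 0.872). The 4 with a lower mean, Ndn at -0.59, Igf2 at -0.42, Phlda2 at -0.35 and Snrpn at -0.30, overlapped between the groups. Wt1os, the antisense transcript beside Wt1, was not well above background on both arrays of either group and gives no level here.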
